A study of Mus musculus with 6 samples.

Results

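GATA-1 and its partner erythroid transcription factors were examined as a set of 10 genes: Gata1, Klf1, Tal1, Lmo2, Ldb1, Zfpm1, Gfi1b, Nfe2, Mafk and Mafg. Every non-control probe annotated to 1 of these genes was taken, which gave 10 of 34797 gene names or identifiers on the array and 14 of its 55681 probes, each 60 bases long. All 14 were well above background on all 6 arrays, none was saturated, and all 14 were among the 27016 probes tested. Each gene was read by its brightest probe, and the other probes are given beside it.

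The cells were G1E-ER-GATA-1, 1 mouse line of erythroid precursors in which the endogenous GATA-1 gene is disrupted and a fusion of GATA-1 with the ligand-binding domain of the estrogen receptor is expressed instead. Both groups were grown with erythropoietin, Kit ligand and puromycin. They were electroporated with siRNA at 0 h and 24 h, given β-estradiol at 24 h to activate ER-GATA-1, and harvested for total RNA at 48 h. The groups were 3 samples with siRNA against Foxo3 and 3 with siRNA that has no target, called nontargeting below, with 1 array per sample and 0.1 µg of RNA taken for Cy3 labelling. Cells without estradiol are not analysed here, so the levels describe cells in which ER-GATA-1 had already been active for 24 h. The labels do not say whether replicates were separate cultures, and p-values therefore reflect only how these samples scatter, which may be technical.

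GATA-1 is the zinc finger factor that drives red cell maturation. On DNA it works in a complex with the basic helix-loop-helix factor TAL1, the LIM-only adaptor LMO2 and the LIM-binding protein LDB1, and it is aided or restrained by its cofactor FOG-1, the product of Zfpm1. KLF1 binds CACCC boxes beside GATA sites at globin and red cell membrane genes, GFI1B is a repressor that recruits histone demethylase and deacetylase complexes, and NF-E2 is a dimer of NFE2 with a small MAF protein such as MAFK or MAFG that acts at the globin locus. The comparison asks whether the mRNA of these factors differed when the forkhead factor Foxo3, whose gene GATA-1 activates in these cells, was targeted by siRNA.

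What each probe reads matters first for Gata1, because the cells carry a transgene. The Gata1 probe lies at chrX:7536392-7536451 (mouse build mm9, minus strand) and was designed on the RefSeq Gata1 mRNA. Probes of 4 member genes contain the polyadenylation hexamer AATAAA, which is found near the end of many mRNAs. The 30 bases around it are shown for these genes, with the hexamer in capitals, because they show which stretch of the message the probe reads. The Gata1 probe holds 2 hexamers, of which the last is marked.
Gata1: ggtatttggttaAATAAAtgtcagtgtcaa
Ldb1: agcagaagacggAATAAAgagactgggcgt
Zfpm1: cccttgacacttAATAAAgacattcggtgt
Gfi1b: gttgatgtaaatgtaAATAAAggtgggttt
Whether the mRNA of the ER-GATA-1 transgene also carries these Gata1 bases is not given in the sources used here. The Gata1 values can therefore be endogenous message, transgene message or both, and these cannot be told apart.

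Promoters are shown for 3 members that take different courses below: Gfi1b and Tal1, which were lower with Foxo3 siRNA, and Klf1, which was not. The sequences are the 250 bases before a transcript start in RefSeq (build GRCm38.p6, unlike the mm9 of the probes), and the motif GATAA, or TTATC on the other strand, is in capitals. Of the 10 members, 8 had an entry in the promoter table, with 11 starts in all.
Gfi1b promoter (chr2:28621983-28622232, minus strand): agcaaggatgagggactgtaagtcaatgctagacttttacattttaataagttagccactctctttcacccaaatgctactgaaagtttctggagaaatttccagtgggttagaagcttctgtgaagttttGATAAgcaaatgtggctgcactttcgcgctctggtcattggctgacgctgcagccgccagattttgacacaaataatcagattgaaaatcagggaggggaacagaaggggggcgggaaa
Tal1 promoter (chr4:115056176-115056425, plus strand): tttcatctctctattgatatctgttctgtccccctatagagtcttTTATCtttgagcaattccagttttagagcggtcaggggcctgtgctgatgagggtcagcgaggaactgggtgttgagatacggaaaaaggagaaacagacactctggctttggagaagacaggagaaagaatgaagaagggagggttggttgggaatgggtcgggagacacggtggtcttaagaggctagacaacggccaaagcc
Klf1 promoter (chr8:84901732-84901981, plus strand): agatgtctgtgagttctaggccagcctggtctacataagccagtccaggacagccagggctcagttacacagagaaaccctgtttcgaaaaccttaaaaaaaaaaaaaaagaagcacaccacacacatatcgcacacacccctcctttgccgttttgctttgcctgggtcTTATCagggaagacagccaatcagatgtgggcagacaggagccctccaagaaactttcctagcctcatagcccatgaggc
The GATAA motif lay 119 bases before the start in Gfi1b, 205 in Tal1 and 80 in Klf1. The window of the second Tal1 start, not shown, held 0. On either strand it was in 4 of the 11 member windows, those of Gfi1b, Klf1, Tal1 and Ldb1, and in 22.6% of all 32851 promoter windows of that length. The forkhead motif GTAAACA was in 0 of 11 member windows and in 3.17% of all windows, and CACCC was in 8 of 11 and in 52.0%. The E-box CAGATG was in 1 of 11, that of Klf1, and in 14.4%. The core TGANTCA of sites bound by NF-E2 was in 0 of 11 and in 6.75%. These searches covered both strands, a match may overlap a match of another motif, and a match is only a description of the letters.

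As a check of the labels, the Foxo3 probe designed on the RefSeq mRNA read −0.46, −1.29 and −1.89 after Foxo3 siRNA, against 1.23, 1.28 and 1.12 after nontargeting siRNA. All values in the text are log2 signals minus the 75th percentile of the same array unless another scale is named. The difference was −2.42 (SE 0.340, limma adjusted p = 0.00541), or 18.6% of the control signal, and with slide row as a block it was −1.67 (limma adjusted p = 0.0297). On 2 of the 3 arrays with Foxo3 siRNA this probe cleared background. A second Foxo3 probe, designed on another transcript of the locus, was the brighter one and was above background on all 6 arrays. It differed by 0.25 (limma adjusted p = 0.259), with all Foxo3 siRNA samples above all nontargeting samples. Foxo3 siRNA replicate 3 stood apart as an array: with 20343 spots well above background it was the dimmest by that count, the other 5 ranging from 30619 to 37532. All 6 arrays were on 1 slide, with Foxo3 siRNA replicate 1 and the 3 nontargeting samples in its first row and Foxo3 siRNA replicates 2 and 3 in its second. With slide row as a block, differences therefore rest on Foxo3 siRNA replicate 1 against the 3 nontargeting arrays, as within the first row. The erythroid label was borne out: 10 of 10 erythroblast markers were well above background on all 6 arrays, while 0 of 8 fibroblast markers were. Among megakaryocyte markers 4 of 8 were above background on all arrays, and for mast cell, macrophage, neutrophil and lymphocyte markers the numbers were 1, 3, 1 and 2 of 8. Those of the last 4 lists above background on all arrays were Tpsb2, Csf1r, Cd68, Itgam, Elane, Cd3e and Cd4. The brightest of them, Itgam, had a mean of 5.66 in the Foxo3 siRNA samples and 6.07 in the nontargeting samples, on the log2 scale defined above. In the same order of lists, 2, 3, 3 and 4 of 8 markers were above background on none, among them Cpa3, Mcpt8, Lyz2, Mpo and Ms4a1.

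Of the 10 factors, 6 fell in the Foxo3 siRNA samples and 0 rose at a limma adjusted p below 0.05: Lmo2, Mafk, Gfi1b, Nfe2, Zfpm1 and Tal1. Gata1 and Klf1 did not pass the test in either direction. Across all tested probes 25.5% passed, 13.3% lower and 12.2% higher, so the share of members called lower, 60%, lay above that background. The members were chosen with earlier results of these data known, so this share is only a description. The median difference over the 10 genes was −0.44, and over all tested probes it was −0.16. Among the 4624 tested probes as bright as the members, 14.6% were called lower and the median was −0.0053. The groups did not overlap, with Foxo3 siRNA below, in 8 of 10 members and in 28.2% of all probes. They were apart with Foxo3 siRNA above in 0 of 10 members and in 21.6% of all probes, and apart in either direction in 49.7%.

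**Figure D1:**
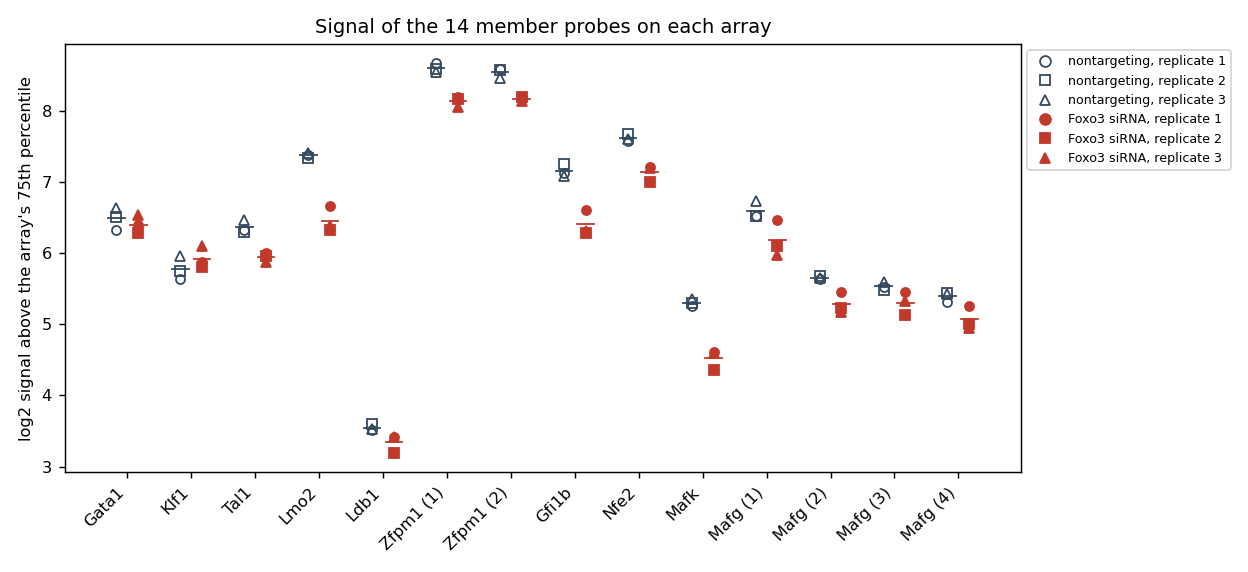
Scaled log2 signal (vertical axis, log2 signal minus the array's 75th percentile) of each of the 14 member probes on each of the 6 arrays, with 1 symbol per array, open for nontargeting and filled for Foxo3 siRNA, and a short line at each group mean (n = 3). The Foxo3 siRNA points lie below all nontargeting points in 8 of the 10 genes, while those of Gata1 and Klf1 overlap.

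The size of these differences depended on how the arrays were scaled, and the 6 genes divide on that point. The signal at the 75th percentile was itself higher on the Foxo3 siRNA arrays (log2 8.43, 8.99 and 8.62, against 8.23, 8.41 and 8.25). Scaling by the median or by the spike-in controls kept the 6 brightest-probe values below 0 but left 0 of 10 members past the test, and it turned the values of Gata1 and Ldb1 above 0. Scaling moved all probes alike: the median over all probes was 0.15 with median scaling and 0.22 with spike-in scaling. Relative to that median the members' median was −0.28 under both, as it was with the 75th percentile. Each time 8 of 10 members lay below the median over all probes. This had to be so, because each of these scalings subtracts the same value from all probes of an array. The agreement is therefore no separate check of the members' lower position. Before any scaling the Foxo3 siRNA signals of Lmo2, Mafk and Gfi1b lay below all nontargeting signals, against 5.14% of all probes, those of Klf1 lay above, against 32.5%, and those of the other 6 genes overlapped.

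GATA-1 itself showed no difference beyond its spread. The Gata1 probe read 6.40, 6.28 and 6.53 in the Foxo3 siRNA samples and 6.32, 6.51 and 6.64 in the nontargeting samples. The samples of both groups were interleaved. The difference was −0.09 (SE 0.133, limma adjusted p = 0.632), with a 95% interval from −0.41 to 0.23. In the authors' deposited table the same spot had a log2 fold change of −0.04 and an adjusted p of 0.899. The interval reaches a fall of 0.41, so a modest change in either direction was not detectable with 3 arrays a group.

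KLF1, the CACCC-binding activator of globin and red cell membrane genes, was level or slightly above. Klf1 (chr8:87428881-87428940, plus strand) read 5.87, 5.80 and 6.10 in the Foxo3 siRNA samples and 5.64, 5.75 and 5.97 in the nontargeting samples. The groups overlapped, since nontargeting replicate 3 lay above Foxo3 siRNA replicates 1 and 2. The difference was 0.14 (SE 0.141, limma adjusted p = 0.460), with an interval from −0.20 to 0.48, and in the authors' deposited table it was 0.22 (adjusted p 0.528). No alternative setting turned its sign or brought it past the test.

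Of the partners in the DNA-bound complex, Lmo2 and Tal1 fell and Ldb1 did not pass the test, and whether their changes differ from each other was not tested. Lmo2, the LIM-only adaptor that bridges TAL1 and LDB1, had the largest fall of the 10 genes by its brightest probe. Its probe (chr2:103821857-103821916, plus strand) read 6.66, 6.32 and 6.39 in the Foxo3 siRNA samples and 7.39, 7.35 and 7.42 in the nontargeting samples. The nontargeting samples lay close together, and all 3 Foxo3 siRNA samples were well below them. The difference was −0.93 (SE 0.126, limma adjusted p = 0.00499), or 52.6% of the nontargeting level, with an interval from −1.23 to −0.62. The authors' deposited table gave −0.87 with an adjusted p of 0.0474, the only member spot of 14 under 0.05 there, where 2.27% of all spots were. The unscaled signals were 34860, 40710 and 32990 against 50240, 55160 and 52050, so the groups were also apart before scaling. With slide row as a block the difference was −0.72 (limma adjusted p = 0.0457). That estimate rests on Foxo3 siRNA replicate 1 alone against the nontargeting arrays, so it equals the −0.72 within the first row.

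TAL1, the helix-loop-helix partner of GATA-1, moved less. Tal1 (chr4:114744219-114744278, plus strand) read 6.01, 5.96 and 5.88 in the Foxo3 siRNA samples and 6.33, 6.30 and 6.46 in the nontargeting samples. The groups did not overlap, with the Foxo3 siRNA samples below. The difference was −0.41 (SE 0.108, limma adjusted p = 0.0356). This call was lost in each of the 6 fits that left out 1 array, with differences from −0.45 to −0.37, and the authors' deposited table gave −0.32 with an adjusted p of 0.344. With slide row as a block it was −0.35 (limma adjusted p = 0.216).

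Ldb1, which encodes the dimerising adaptor that holds the complex together and links distant sites, was the dimmest member. Its probe (chr19:46107487-46107546, minus strand) read 3.41, 3.19 and 3.41 against 3.51, 3.60 and 3.52. The Foxo3 siRNA samples were all lower, but by little. The difference was −0.21 (SE 0.114, limma adjusted p = 0.200), with an interval from −0.48 to 0.06.

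The factors of the set that recruit corepressors, Zfpm1 and Gfi1b, both fell. The brighter Zfpm1 probe (chr8:124861092-124861151, plus strand) read 8.20, 8.17 and 8.05 in the Foxo3 siRNA samples and 8.67, 8.60 and 8.55 in the nontargeting samples. The groups did not overlap, with the Foxo3 siRNA samples below. The difference was −0.47 (SE 0.106, limma adjusted p = 0.0240), or 72.4% of the nontargeting level. The second Zfpm1 probe shares 55 of its 60 bases with the first and is not independent of it, and it fell by 0.38 on the log2 scale (limma adjusted p = 0.0404), a value that spike-in scaling brought to 0.0062. The authors' deposited table gave −0.47 and −0.44 for these spots, with adjusted p of 0.191 and 0.228. The call for the brighter probe remained in 1 of 6 fits without 1 array, the fit without Foxo3 siRNA replicate 1, and was lost in the others. With slide row as a block the brighter probe was at −0.41 (limma adjusted p = 0.163) and the second at −0.38 (limma adjusted p = 0.182).

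Gfi1b, whose product represses genes of other blood lineages, had the third largest fall by size. It lies at chr2:28464982-28465041 (minus strand) and read 6.61, 6.29 and 6.32 in the Foxo3 siRNA samples and 7.13, 7.26 and 7.08 in the nontargeting samples. All 3 Foxo3 siRNA samples were below all 3 nontargeting samples, with replicate 1 nearest to them. The difference was −0.75 (SE 0.132, limma adjusted p = 0.0107), or 59.4% of the nontargeting level, and the authors' deposited table gave −0.71 with an adjusted p of 0.0947. With slide row as a block it was −0.55 (limma adjusted p = 0.0980), the same estimate as within the first row.

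Among the subunits of NF-E2, the large subunit and MAFK fell, and MAFG did not pass the test. Nfe2 (chr15:103078838-103078897, minus strand) read 7.21, 7.01 and 7.20 in the Foxo3 siRNA samples and 7.58, 7.68 and 7.62 in the nontargeting samples, with no overlap. The difference was −0.49 (SE 0.111, limma adjusted p = 0.0244), or 71.3% of the nontargeting level, and the authors' deposited table gave −0.47 with an adjusted p of 0.222. As for Zfpm1, the call was kept only in the fit without Foxo3 siRNA replicate 1 among the 6 that left out 1 array. With slide row as a block it was −0.41 (limma adjusted p = 0.174).

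Mafk encodes 1 of the small MAF proteins, which supply DNA binding but no activation domain to the dimer. Its probe (chr5:140278221-140278280, plus strand) read 4.61, 4.36 and 4.59 in the Foxo3 siRNA samples and 5.25, 5.30 and 5.36 in the nontargeting samples. The nontargeting samples were close together and the Foxo3 siRNA samples all lay below. The difference was −0.78 (SE 0.117, limma adjusted p = 0.00661), or 58.2% of the nontargeting level, and the authors' deposited table gave −0.71 with an adjusted p of 0.0804. With slide row as a block it was −0.69 (limma adjusted p = 0.0693), the same estimate as within the first row.

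Mafg, the other small MAF gene in the set, was read by 4 probes spread over 4161 bases of chromosome 11. The brightest (chr11:120489919-120489978, minus strand) read 6.47, 6.11 and 5.98 in the Foxo3 siRNA samples and 6.52, 6.53 and 6.74 in the nontargeting samples. Foxo3 siRNA replicate 1 lay just under the nontargeting samples and the other two lay further below. The difference was −0.41 (SE 0.159, limma adjusted p = 0.0988), and the other 3 probes differed by −0.37, −0.33 and −0.23 (limma adjusted p = 0.0595, 0.0979 and 0.200). On all 4 probes the groups were apart with Foxo3 siRNA lower, and 0 of 4 were called. The brightest probe was called lower in 2 of the 17 alternatives, the intensity trend and the fit without Foxo3 siRNA replicate 1. Whether Mafk fell by more than Mafg was not tested.

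**Figure D2:**
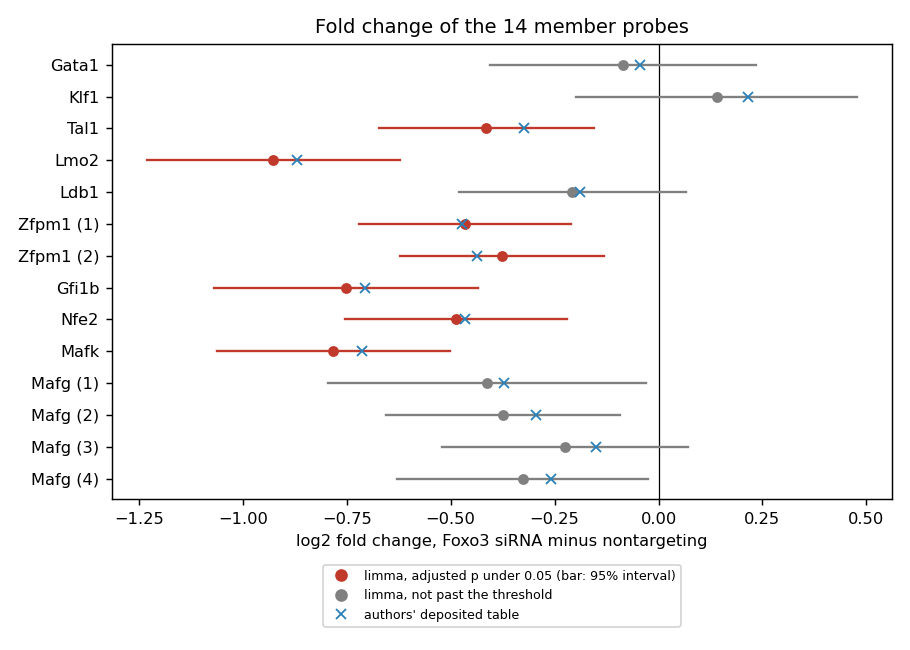
Log2 fold change, Foxo3 siRNA minus nontargeting (horizontal axis), of each of the 14 member probes, with bars for the 95% interval, red for a limma adjusted p below 0.05 and grey otherwise, and crosses for the authors' deposited log2 fold change. Lmo2 is farthest below 0 at −0.93, and the intervals of Gata1, from −0.41 to 0.23, and of Klf1, from −0.20 to 0.48, include 0.

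Lmo2, Mafk and Gfi1b kept their calls in all 6 fits that left out 1 array, with differences from −1.03 to −0.86, from −0.83 to −0.70 and from −0.86 to −0.69. Over all 17 alternative settings Lmo2 was called in 13, Mafk and Gfi1b in 12 each, Nfe2 and Zfpm1 in 7 each and Tal1 in 5. Leaving out Foxo3 siRNA replicate 3, the array that stood apart, left these 3 genes called, and the count of members called lower went from 6 to 3.

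**Figure D3:**
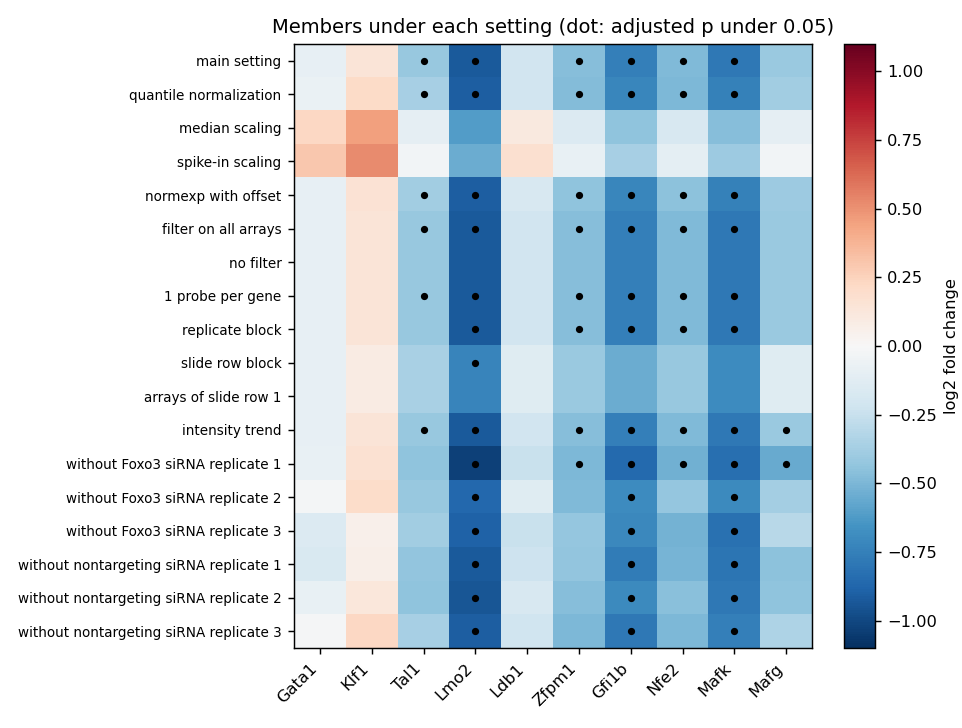
Heat map of the log2 fold change, Foxo3 siRNA minus nontargeting, of each member (columns, brightest probe) under the main setting and the 17 alternatives (rows), blue for lower and red for higher, with a dot for a limma adjusted p below 0.05. Lmo2, Gfi1b and Mafk carry dots in most rows, median and spike-in scaling shift all genes upward, and no member is called higher in any row.

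The difference between 2 genes on the same array is not altered by the scaling of that array, so each member was also set against Gata1, array by array. Lmo2 minus Gata1 was 0.26, 0.04 and −0.15 in the Foxo3 siRNA samples and 1.06, 0.84 and 0.77 in the nontargeting samples. Lmo2 was thus above Gata1 by more on every nontargeting array than on any Foxo3 siRNA array, and the group means differed by −0.84. Because the 2 probes differ in sequence, only the change in this difference is read, not its level. For Mafk the change was −0.70, for Gfi1b −0.67, for Nfe2 −0.40, for Zfpm1 −0.38 and for Tal1 −0.33, and in each of these 6 genes the groups were apart with Foxo3 siRNA lower, against 15% of all probes. Klf1 went the other way: it was −0.53, −0.48 and −0.44 relative to Gata1 in the Foxo3 siRNA samples and −0.68, −0.76 and −0.68 in the nontargeting samples. The change for Klf1 was 0.23, with the Foxo3 siRNA arrays all higher, as in 22.1% of all probes. Each of these 7 contrasts had a two-sided exact permutation p of 0.1, the smallest that 3 against 3 arrays can give, and 0.129 after Benjamini-Hochberg adjustment over 9 contrasts. Ldb1 (−0.12, exact permutation p = 0.3) and Mafg (−0.33, exact permutation p = 0.2) overlapped. Against Klf1 in place of Gata1, all 9 other members were apart with Foxo3 siRNA lower (exact permutation p = 0.1 each), as were 27.8% of all probes, while 12% were apart higher. The changes ran from −1.07 for Lmo2 to −0.35 for Ldb1 and −0.23 for Gata1, with Mafg at −0.55. The contrasts share the Gata1 or Klf1 values of each array and are not independent of each other. Both references were chosen after seeing the data, and Klf1 (0.14) and Gata1 (−0.09) had the highest differences of the members. The sign of each mean change follows from that choice and is no separate evidence that the other members were lower.

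**Figure D4:**
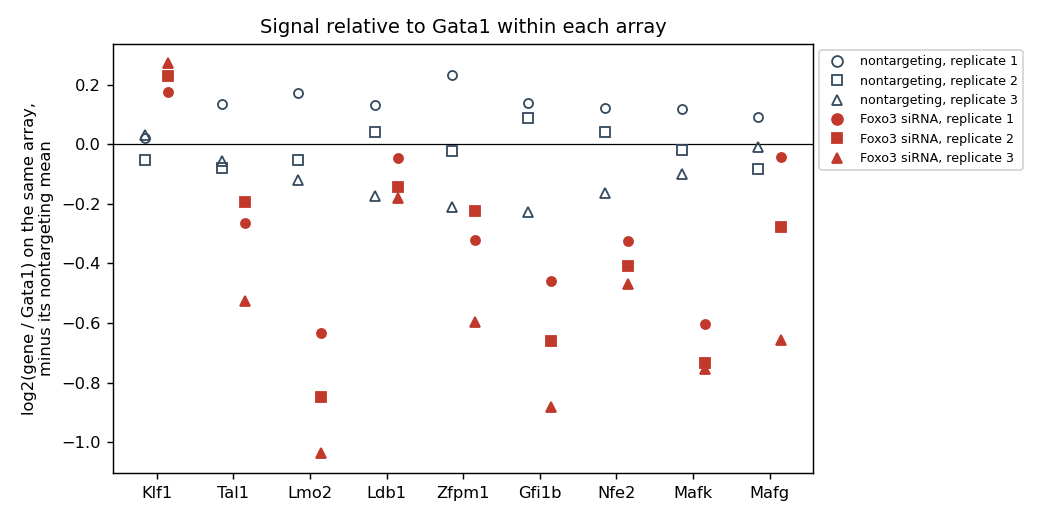
Log2 signal of each member minus that of Gata1 on the same array, centred on the nontargeting mean (vertical axis), 1 symbol per array. Klf1 lies above the nontargeting arrays on all Foxo3 siRNA arrays, 6 genes lie below them, and Ldb1 and Mafg overlap.

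Other genes of the pathway are set against the shares over all tested probes, 12.2% called higher and 13.3% lower, and their calls too depended on the scaling. Of 13 tested genes among the other LDB1-complex, GATA and helix-loop-helix partners, 2 rose and 3 fell, with a median of −0.05. With median scaling the 3 falls lost their call and 3 genes were called higher, Gata3, Lyl1 and Ssbp4. With spike-in scaling Lyl1 alone was called, and with slide row as a block 0 of 13 were. Lyl1, a close relative of Tal1 that can take its place with LMO2, rose from 1.20, 1.02 and 1.54 in the nontargeting samples to 2.26, 2.59 and 2.75 with Foxo3 siRNA. The groups were apart, and the difference was 1.28 (limma adjusted p = 0.00638), opposite in sign to that of Tal1. It was called in 14 of the 17 alternative settings, but not with no filter, with slide row as a block or within the first row. Gata2, the GATA factor of progenitors that GATA-1 displaces as red cells mature, fell from 2.69, 2.81 and 3.24 to 2.29, 1.63 and 2.10, a difference of −0.91 (limma adjusted p = 0.0303). Its groups did not overlap, and the call remained in 1 of 6 fits without 1 array. Ssbp2 and Ssbp3, which encode proteins that protect LDB1 from degradation, fell by 0.50 and 0.71 on the log2 scale (limma adjusted p = 0.0161 and 0.0173). For Ssbp2 the other 2 probes differed by −0.38 and −0.24 and were not called. Ssbp4, named after its value was seen, rose by 0.51 (limma adjusted p = 0.0365). Cbfa2t3, the ETO2 corepressor of the complex, differed by −0.08 on its brightest probe (limma adjusted p = 0.559), while its other probes differed by −0.62 (limma adjusted p = 0.0377) and 0.08.

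Among 18 tested corepressor subunits that work with FOG-1 and GFI1B there were 2 rises and 4 falls, 33.3% called against 25.5% of all probes, with a median of 0.03. With median scaling the 4 falls lost their call and both rises kept it, and with spike-in scaling or slide row as a block 0 of 18 were called. Phf21a and Hmg20b, subunits of the CoREST histone demethylase complex, fell by 0.62 and 0.64 on the log2 scale (limma adjusted p = 0.0123 and 0.0182). Hdac1, a histone deacetylase shared by several of these complexes, rose by 0.55 (limma adjusted p = 0.0169), and its other 2 probes also rose. The rest, named after their values were seen, were Gatad2b (−0.60), Mta3 (−0.51) and Mbd3 (0.45), all subunits of the NuRD complex. The other Mta3 probes were at −0.70 (limma adjusted p = 0.0256) and 0.00, the latter not called. The other Mbd3 probe was at 0.19 and was not called. Gfi1, the paralog of Gfi1b, had no probe that passed the filter. Of 7 tested coactivators 0 rose and 1 fell: Brd3, a reader of acetylated GATA-1, by 0.84 on the log2 scale (limma adjusted p = 0.00613). That is 14.3% of the list, near the 13.3% of all probes called lower, and 0 of 7 were called with median or spike-in scaling or with slide row as a block. Crebbp and Kat2b, which encode acetyltransferases, were next, at −0.32 and −0.47 (limma adjusted p = 0.0911 and 0.110), and another Crebbp probe was at 0.21. The dimmer Brd2 probe, named after its value was seen, was called at −0.58 (limma adjusted p = 0.0119), while the brighter was at −0.18.

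Among 5 tested genes related to NF-E2 or its small MAF partners, 0 rose and 1 fell, a share of 20% near the 25.5% called over all probes. Nfe2l2 encodes NRF2, which pairs with the same small MAF proteins to activate antioxidant genes. It read 4.30, 4.39 and 4.26 in the Foxo3 siRNA samples and 4.77, 4.98 and 5.14 in the nontargeting samples. All Foxo3 siRNA samples were lower, and the difference was −0.65 (limma adjusted p = 0.0165). Its call was lost with median scaling, spike-in scaling and slide row as a block. Maff, a small MAF gene named after its value was seen, was at 0.52 (limma adjusted p = 0.200). With median scaling it was called higher. Bach1, a heme-sensing repressor that competes for small MAF partners, differed by −0.23 (limma adjusted p = 0.145). Of 3 tested platelet genes that NF-E2 activates, 0 were called, and Tubb1 was nearest at 0.42 (limma adjusted p = 0.0750).

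Of 14 tested genes that GATA-1 activates, 1 rose and 3 fell, beside 12.2% and 13.3% of all probes, with a median of −0.29 that median and spike-in scaling turned to 0.02 and 0.09. With median scaling the 3 falls lost their call and Trim10 kept its own, and with spike-in scaling or slide row as a block 0 of 14 were called. Bcl2l1, the survival factor BCL-XL, fell by 0.62 on the log2 scale (limma adjusted p = 0.0112). Btg2, an antiproliferative gene, fell by 0.58 (limma adjusted p = 0.0135), and Trim10 rose by 0.50 (limma adjusted p = 0.0226). The other call, named after its value was seen, was the heme enzyme Urod (−0.45). Of 6 tested genes that GATA-1 represses, Lyl1 rose and Gata2 and Hhex fell, Hhex by 0.59 on the log2 scale (limma adjusted p = 0.0167). With median scaling both falls lost their call, and Lyl1 and Spi1 were called higher. With slide row as a block 0 of 6 were called.

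Of 10 tested targets of KLF1, 6 rose and 0 fell, with a median of 0.54. Over all probes 12.2% were called higher, and Klf1 itself was not called. This list, like the others, was chosen with earlier results of these data known, so its share is only a description. E2f2, a cell cycle factor, read 4.54, 4.64 and 4.36 in the Foxo3 siRNA samples and 2.23, 2.38 and 1.80 in the nontargeting samples. Every Foxo3 siRNA sample was far above every nontargeting sample, and the difference was 2.38 (limma adjusted p = 0.00102). Icam4, a red cell surface adhesion molecule, rose by 1.27 (limma adjusted p = 0.0014), and Kcnn4, the red cell calcium-activated potassium channel, by 1.20 (limma adjusted p = 0.00245). These 3 genes were called higher in all 17 alternative settings. With spike-in scaling or no filter they were the only 3 of the 10 called. The others, named after their values were seen, were Alad (0.93), Bcl11a (0.62, with another probe at 0.01) and Add2 (0.46). Add2 lost its call in all 6 fits that left out 1 array. Dmtn, also named after its value was seen, was at −0.30 on its brightest probe and at 0.83 on another (limma adjusted p = 0.0108). Adult beta-globin, a leading KLF1 target and listed as Hbb-b1, was at −0.55 and did not pass the test (limma adjusted p = 0.0722). It was called lower in 4 of the 17 alternative settings. Its probe was designed on a transcript that RefSeq now names Hbb-bt, and the adult beta-globin copies are near-identical, so which copy it reads is uncertain. These genes are also bound by other factors of red cells, and which factor their level follows was not tested.

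**Figure D5:**
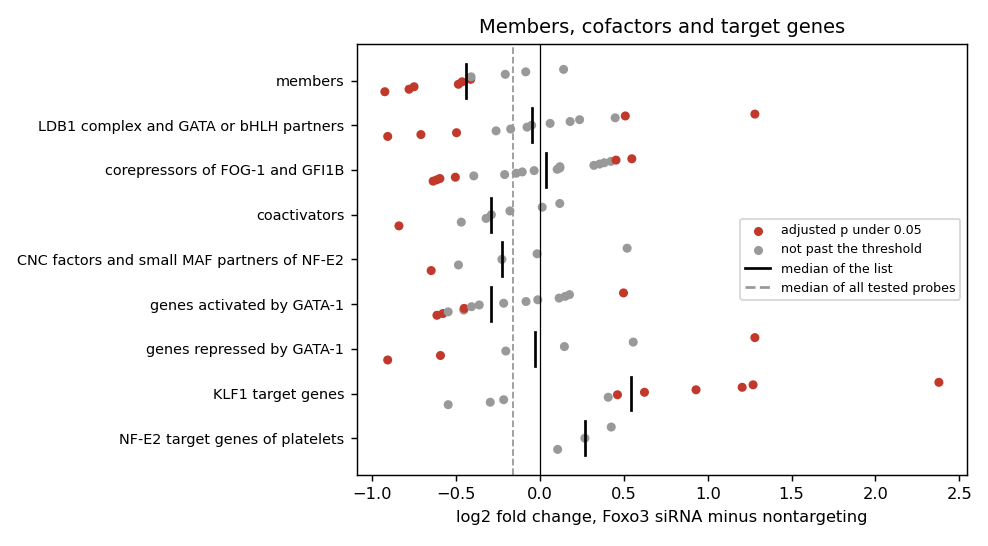
Log2 fold change, Foxo3 siRNA minus nontargeting (horizontal axis), of each tested gene of the member set and of the related gene lists, 1 point per gene, red for a limma adjusted p below 0.05 and grey otherwise, with a bar at the list's median and a dashed line at the median of all tested probes (−0.16). The members lie mostly below 0, while the KLF1 targets lie mostly above it, up to 2.38 for E2f2. All lists were chosen with earlier results of these data known.

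Levels of cell type markers stand beside these results. In bulk RNA, fewer cells of a type and less RNA per cell cannot be told apart. The summed scaled signal of the 10 erythroblast markers was 3320 to 4530 in the Foxo3 siRNA samples and 4880 to 5460 in the nontargeting samples. These ranges did not overlap, but the sum is carried by the bright globin and heme genes Hba-a1, Hbb-b1 and Alas2, at −0.46, −0.55 and −0.41, which did not pass the test. The median over the 10 markers was 0.03, and by the test 2 rose, Rhag by 1.40 and Tfrc by 0.60, and 0 fell. The other Tfrc probes were at 0.35 and 0.34 and were not called. Hba-a1, Hbb-b1 and Alas2 were called lower in 5, 4 and 5 of the 17 alternative settings. The summed signal of megakaryocyte markers was 23.9 to 51 against 27.7 to 47.1, with Itga2b higher by 1.26 and Treml1 by 2.50. The sums for mast cell markers were 0.863 to 1.65 against 1.29 to 1.79, with Hdc at −1.23 (limma adjusted p = 0.00852). For macrophage markers they were 52.3 to 61.4 against 58.6 to 92.2, for neutrophil markers 12.7 to 16.6 against 15.1 to 26, and for lymphocyte markers 14.7 to 17 against 15.3 to 23.4. Their part in the differences of the factors was not tested.

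The genes whose pattern over the 6 arrays was most like that of Gata1, among 12608 named genes, were Zswim3, Gspt1 and Os9, with Pearson r of 0.98, 0.98 and 0.97. Those most like Lmo2 were Nsmaf, Pink1 and Brd3, with r of 0.9996, 0.9994 and 0.9993. For Lmo2 the 2 groups lie apart, and all points share the same arrays and scaling.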

How the data were processed

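Total RNA of 3 Foxo3 siRNA and 3 nontargeting siRNA samples was measured on 1-colour Agilent mouse arrays. Per the file headers, the deposited spot intensity was computed by Feature Extraction 10.7.3.1, which subtracts background and detrends each array; surrogate values stand in for signals that do not exceed background. Probe positions are on mm9, per the file headers. The authors' deposited table gives per spot a p-value, its adjusted value and a log2 fold change, which came from limma per the submitters' processing notes; the normalization between arrays is not given in the sources used here.

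From the intensity, outlier spots were set to missing, log2 was taken, arrays were scaled to their own 75th percentile and repeated spots averaged by probe. The 27016 probes that were well above background on every array of 1 group or of both were tested with limma 3.58.1 in R 4.3.3 (lmFit, eBayes, two-sided, no covariates), with Benjamini-Hochberg adjustment over all of them and a threshold of 0.05. The script was tested on simulated data. Signal over background stands in for depth, and the number of arrays limits the precision.

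List genes that no probe reached through RefSeq were read by the array's own gene name. The members, the other lists and the settings were chosen with earlier results of these data known. From each list other than the members, up to 3 genes with the smallest adjusted p were named, and Gata2, Lyl1, Bach1, Cbfa2t3 and Gfi1 whatever their value; the 3 genes most like Gata1 and Lmo2 were also named. The comparisons with Gata1 and Klf1, without scaling and with probes of like brightness were chosen after seeing the data. Scaling, background correction, filters, blocks and single arrays left out were varied. Some genes of the lists are not reported here. Sequences are from the array design and from RefSeq.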

Additional observations from a re-analysis of the deposited data

How the results depend on the processing

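No member was called higher under any of the 17 alternatives. The count of members called lower, 6 as reported, was 0 with median scaling, with spike-in scaling, with no filter and with the arrays of the first slide row, 1 with slide row as a block, and 3 to 6 without 1 array. Over all probes, 6886 calls became 1259 with spike-in scaling, 635 with no filter, 1891 with slide row as a block, 1081 within the first row and 3350 to 6129 without 1 array. Calls among cofactor genes, 13 as reported, were 6 with median scaling, 0 with no filter, 1 with spike-in scaling, slide row as a block or the first row, and 2 to 13 without 1 array. Calls among target genes, 13 as reported, were 4 with spike-in scaling or slide row as a block, 3 with no filter or the first row, and 6 to 15 without 1 array. The second Zfpm1 probe turned to 0.0062 with spike-in scaling. With no filter the Foxo3 value was still −2.42, but its limma adjusted p was 0.0616; without 1 array it ran from −2.80 to −2.09, with normexp it was −1.90, and with slide row as a block or within the first row −1.67 (limma adjusted p = 0.0297 and 0.0299). Higher calls were 47.7% of all calls as reported, 77.4% with median scaling, 82.0% with spike-in scaling, 65.4% with no filter and 59.2% with slide row as a block. The first slide row holds 1 Foxo3 siRNA array, assumed to vary like the nontargeting arrays. The differences with slide row as a block rest on that array too. With no filter more probes were tested; the cause of the other changes was not tested. Same-numbered samples correlated at 0.16, −0.31 and 0.11, and Foxo3 siRNA replicate 1 correlated best with nontargeting replicate 2 (0.28). With 3 arrays a group these values cannot decide whether the numbers pair the samples. With the replicate number as a block 5 members and 6899 probes were called, and Tal1 had a limma adjusted p of 0.0618. Dim probes, such as Foxo3 on Foxo3 siRNA replicate 3, are limited by signal over background.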
